A study of Mus musculus with 3 samples.

Results

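Matricellular genes encode secreted proteins that sit in the extracellular matrix and act on cell surface receptors, growth factors and proteases rather than serving as structural fibres. In skeletal muscle they are known from the niche of the satellite cell, the muscle stem cell, and from matrix remodelling during regeneration. The 10 genes described here are Mgp, Sparc, Spp1, Thbs1, Thbs2, Cyr61, Ctgf, Postn, Tnc and Tgfbi, of 22380 protein-coding genes in the GENCODE M1 annotation of the mouse genome build mm9. Mgp encodes matrix Gla protein, an inhibitor of calcification, and Sparc encodes a collagen-binding and calcium-binding glycoprotein. Spp1 encodes osteopontin, an acidic integrin ligand, and Thbs1 and Thbs2 encode trimeric thrombospondins. Cyr61 and Ctgf encode CCN family proteins and are well-known targets of YAP and TEAD. Postn and Tgfbi encode fasciclin-domain proteins, and Tnc encodes the hexameric glycoprotein tenascin-C.

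The study examined PAM, a long noncoding RNA transcribed from a super-enhancer (a seRNA), in ASCs, which are activated satellite cells. The cells carried the Tg:Pax7-nGFP transgene, in which Pax7 regulatory sequence drives a nuclear GFP, and were sorted from hindlimb muscle on this reporter and cultured with serum and FGF. Chromatin isolation by RNA purification (ChIRP-seq) was run separately with 2 pools of biotinylated probes against PAM, odd and even, on the same number of cells. Crosslinking used 1% glutaraldehyde for 10 min, and 100 pmol of each pool was hybridized for 4 h at 37 °C. Each pool gave 1 library, so there is no replicate of either pool and no difference could be tested against replicate error, and the input library was not analysed here. All groups share the transgene, the cell type and the culture. The labels used here give no age.

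In the deposited odd list there were 2112 regions of 254 bp, whose scores ran between 4 and 81 (median 6). In the even list there were 345 regions of 248 bp, whose scores ran between 4 and 68 (median 5). The meaning of the score is not stated, so scores are compared and ranked within a list only. The lists hold no read counts, so the depth behind a region is unknown. Satellite cell markers Des, Itga7, Vcam1 and Myog held an odd region, whereas Pax7, Myf5, Myod1 and Cdh15 did not. Fibroblast markers Col1a1, Col1a2, Col3a1 and Dcn also held one, 4 of 6 listed, beside 6.46% of all protein-coding genes, whereas Pdgfra and Lum did not. An even region and a shared locus lay in 2 of 8 satellite cell and 3 of 6 fibroblast markers, beside 0.996% and 0.469% of all protein-coding genes. No region of either pool lay in the 4 endothelial or the 4 blood cell markers, lists too short to be read against these shares. A region list measures no expression, so the cell type label could not be checked further, and the part of other cell types in the results was not tested.

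The 10 members were chosen by name with earlier results of these lists known, and their regions were selected on overlap of at least 1 bp with the annotated gene span. Which members hold regions, and how many, is therefore a description. An odd region lay in 6 of 10 members, beside 6.46% of all protein-coding genes (1445 of 22380). An even region lay in 4 of 10 members, beside 0.996% of all protein-coding genes. A stretch covered by a region of each pool, called a shared locus, lay in 3 of 10 members, beside 0.469% of all protein-coding genes. In all, the members held 11 odd and 5 even regions. Mgp, Sparc, Spp1 and Thbs1 held regions of both pools, Thbs2 and Cyr61 of the odd pool alone, and Ctgf, Postn, Tnc and Tgfbi of neither. Regions of one gene share its sequence and are not replicates. Every one of these regions lay whole within its gene span, and outside the spans the nearest region of the odd list was 70.0 kb away, at Postn, with a score of 6.

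**Figure D1:**
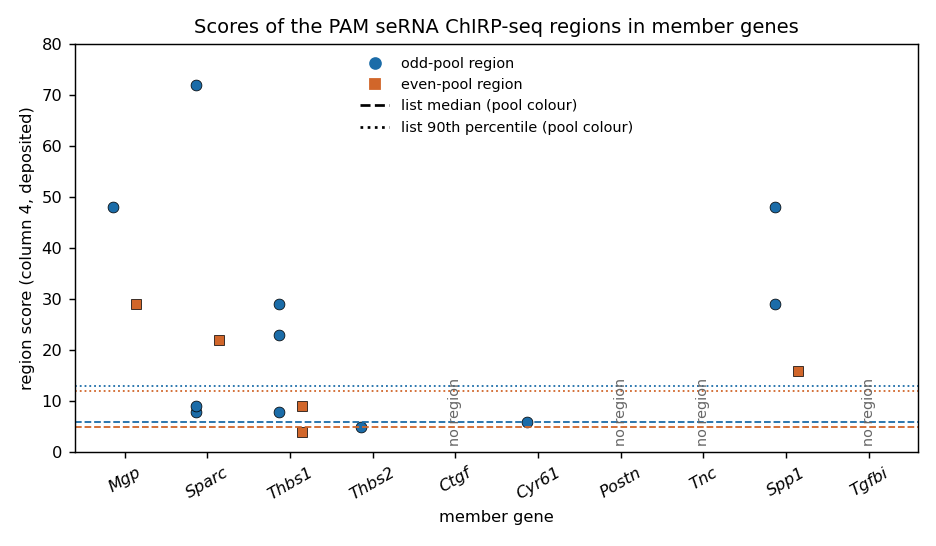
Deposited score (vertical axis) of each odd-pool region (circles) and even-pool region (squares) in the 10 member genes (horizontal axis); dashed and dotted lines are the median and 90th percentile of each list in the pool's colour. Mgp, Sparc and Spp1 have regions above the 90th percentile of both lists (13 for odd, 12 for even), Thbs1 has 2 above that of the odd list only, and 4 members have no region.

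The sequences that carry these results are the coding stretches covered by both pools in Mgp and Spp1, and they are shown first. The Mgp stretch is the coding part of exon 4 under the odd region, minus strand, chr6:136821165-136821309 of mm9, ending in the stop codon. The Spp1 stretch is the start of exon 8 under the odd region, plus strand, chr5:104869248-104869472. Capitals mark the bases that a region of the even pool covers too, 126 of 145 in Mgp and 159 of 225 in Spp1.
Mgp exon 4: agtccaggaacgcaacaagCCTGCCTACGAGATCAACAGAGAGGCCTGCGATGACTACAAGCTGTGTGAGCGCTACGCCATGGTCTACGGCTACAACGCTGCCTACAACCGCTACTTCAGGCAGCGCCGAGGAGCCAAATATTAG
Spp1 exon 8: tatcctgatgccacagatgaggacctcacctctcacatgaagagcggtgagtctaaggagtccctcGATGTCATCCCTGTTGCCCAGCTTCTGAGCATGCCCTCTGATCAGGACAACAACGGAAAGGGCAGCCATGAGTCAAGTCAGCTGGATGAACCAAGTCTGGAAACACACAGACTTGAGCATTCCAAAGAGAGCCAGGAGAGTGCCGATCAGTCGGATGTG

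Mgp had the shortest spliced transcript of the members and was one of the highest ranked genes in both pools. It lies on the minus strand at chr6:136820957-136824326, and its transcript has 4 exons, 598 nt and 104 codons before the stop. Its odd region, chr6:136821064-136821317, had a score of 48, which only 13 of 2112 odd regions exceeded. Its even region, chr6:136821043-136821290, had a score of 29, which 3 of 345 even regions exceeded. By the highest score in a gene, Mgp stood 9th of the 1445 protein-coding genes with an odd region and 2nd of the 223 with an even region. Mgp was named with earlier results of these lists known, so its high rank in both is a description.

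The 2 Mgp regions covered nearly the same bases. They shared 227 bp, chr6:136821064-136821290, which is 89.4% of the odd and 91.5% of the even region. The shared bases were 126 coding and 101 in the 3′ UTR, so the locus straddles the stop codon in the last exon. The odd region reached 8 bp into the intron before exon 4, whereas the even region lay wholly within the exon. Together the regions covered 46.0% of the coding sequence, codons 57 to 104 and the stop, and 58.7% of the 3′ UTR.

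Spp1 held 3 regions, all with their midpoint in coding sequence. The gene lies on the plus strand at chr5:104864137-104870069, with 8 exons, 1411 nt and 295 codons. The odd region in exon 8, chr5:104869219-104869472, had a score of 48, tied with that of Mgp. The odd region in exon 7, chr5:104868275-104868528, had a score of 29, rank 40 of 2112, and began 9 bp before the exon. The even region, chr5:104869314-104869561, lay in exon 8 with a score of 16, rank 16 of 345. Spp1 stood 9th among genes in the odd pool, level with Mgp, and 8th in the even pool.

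The shared locus of Spp1 was 159 bp, chr5:104869314-104869472, 62.6% of the odd and 64.1% of the even region, and all of it was coding. The odd exon 8 region began 29 bp before the exon and covered codons 167 to 241, and the even region covered codons 189 to 271. None of the 430 nt of the 3′ UTR was covered in either pool, although exon 8 holds it. The regions together covered 63.0% of the Spp1 coding sequence, the highest share among the members.

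The exon 7 region covered the stretch that encodes the integrin-binding part of osteopontin. It is shown because it holds the Arg-Gly-Asp codons, found in frame at codons 145 to 147 and set in capitals, the only such match in the Spp1 coding sequence. The stretch, chr5:104868284-104868528 on the plus strand, also holds an unbroken run of 10 aspartate codons.
Spp1 exon 7: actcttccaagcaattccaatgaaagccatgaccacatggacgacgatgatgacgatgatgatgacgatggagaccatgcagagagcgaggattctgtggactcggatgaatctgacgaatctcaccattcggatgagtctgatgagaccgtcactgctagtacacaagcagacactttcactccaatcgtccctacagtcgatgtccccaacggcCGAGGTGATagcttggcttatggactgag
Aspartate codons made up 25.9% of the 81 whole codons in this region, beside 13.9% of the 295 codons of the gene. In the exon 8 regions they made up 12% of 75 codons under the odd and 10.98% of 82 under the even region.

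Sparc held the second highest odd region of the whole list. The gene lies on the minus strand at chr11:55208002-55233582, with 10 exons, 2300 nt and 302 codons. The odd region chr11:55208363-55208616 had a score of 72, rank 2 of 2112, and lay wholly in the 3′ UTR in exon 10, ending 361 nt before the transcript end. The even region, chr11:55208107-55208354, had a score of 22, rank 8 of 345, and lay in the same UTR, ending 105 nt before the transcript end. The pools did not overlap: 8 bp separated the 2 regions, so Sparc had no shared locus by the 1 bp rule. Sparc ranked 2nd of the genes with an odd region and 4th of those with an even region. Together the 2 regions covered 502 of the 1085 nt of the 3′ UTR (46.3%).

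The remaining Sparc regions were low and belonged to the odd pool only. A region over exon 5, chr11:55218615-55218868, had a score of 8, and one over exon 6, chr11:55215388-55215641, had a score of 9, both above the list median of 6. Each held its whole exon, of 122 and 121 nt, and was nearly centred on it. The exon 5 region extended 65 bp into the intron on the 5′ side and 67 bp on the 3′ side, and the exon 6 region 68 and 65 bp. The exons are printed for their length and content: cysteine codons were 15.0% of the 40 whole codons of exon 5 and 10.0% of the 40 of exon 6, beside 4.97% of the gene. Both are on the minus strand, exon 5 at chr11:55218682-55218803 and exon 6 at chr11:55215453-55215573, in lower case because no even region covers them.
Sparc exon 5: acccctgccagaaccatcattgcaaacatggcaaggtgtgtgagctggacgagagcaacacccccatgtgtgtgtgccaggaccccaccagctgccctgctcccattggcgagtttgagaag
Sparc exon 6: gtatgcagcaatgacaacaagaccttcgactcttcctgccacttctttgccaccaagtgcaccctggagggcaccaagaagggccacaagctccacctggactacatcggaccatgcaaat

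Thbs1, encoding thrombospondin-1, an activator of latent TGF-beta, held 5 regions in 2 of its 22 exons. The gene lies on the plus strand at chr2:117937612-117952869, with a transcript of 5848 nt. In exon 22, which holds the 3′ UTR, the odd regions chr2:117950992-117951245 and chr2:117951927-117952180 had scores of 29 and 23, rank 40 and 69 of 2112. The even region there, chr2:117951105-117951352, had a score of 9, rank 51 of 345. It shared 141 bp with the first odd region, chr2:117951105-117951245, all in the 3′ UTR. By highest score Thbs1 stood 27th of 1445 genes in the odd pool and 33rd of 223 in the even pool, the lowest of the 4 members with both pools.

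In exon 3 of Thbs1 the pools lay side by side. The odd region, chr2:117939043-117939296, had a score of 8 and covered codons 135 to 209. The even region, chr2:117938734-117938981, had a score of 4, the lowest in its list, and covered codons 32 to 115. The 2 were 61 bp apart, so only exon 22 held a shared locus. The exon 3 values were the lowest of the gene in both pools.

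Thbs2, the paralogue of Thbs1, and Cyr61 held 1 odd region each, near the list median. The Thbs2 region, chr17:14810177-14810430 on the minus strand, had a score of 5 and covered 209 coding bases of exon 17 of 22 and 45 bp of the intron before it. Thbs2 ranked 737 of the 1445 genes with an odd region. The Thbs2 stretch, chr17:14810177-14810385, is shown because 22 of its 69 whole codons encode aspartate (31.9%, beside 10.6% in the gene), set in capitals. Thrombospondins bind calcium through repeats rich in this residue.
Thbs2 exon 17: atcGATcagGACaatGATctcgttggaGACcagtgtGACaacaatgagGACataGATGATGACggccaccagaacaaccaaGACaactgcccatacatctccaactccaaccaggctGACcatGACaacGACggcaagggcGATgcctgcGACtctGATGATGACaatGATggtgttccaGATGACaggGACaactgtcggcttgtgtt

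The Cyr61 region, chr3:145311143-145311396 on the minus strand, had a score of 6 and held the whole of exon 4 of 5, with 21 bp of intron on its 5′ side and 18 bp on its 3′ side. Cyr61 ranked 550 of 1445 genes. It covered codons 208 to 279, and none of the 695 nt of the 3′ UTR was covered. The nearest even regions lay 940.2 kb from Cyr61 and 5290 kb from Thbs2.

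**Figure D2:**
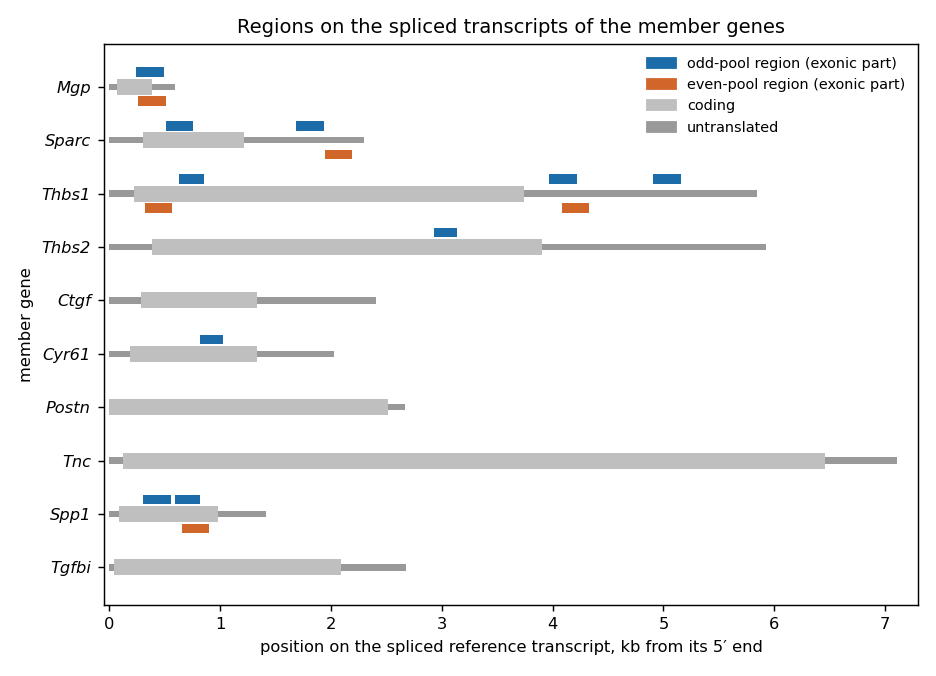
Position of the exonic part of each region along the spliced reference transcript, in kb from its 5′ end (horizontal axis), for each member gene (vertical axis); thick boxes are coding, thin bars untranslated, odd regions lie above and even regions below each transcript. The regions over Sparc exons 5 and 6 join once the introns are removed and appear as 1 block. The Sparc and Thbs1 regions with the highest scores lie in the 3′ UTR, those of Spp1 in coding sequence, and those of Mgp across the stop codon.

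The 4 members without a region also had none in the 5000 bp on either side. Ctgf (chr10:24315248-24318489), the other CCN gene of the set, had its nearest odd region 406.8 kb away in Stx7, with a score of 4. Postn (chr3:54165031-54194961) had its nearest odd region 70.0 kb away and its nearest even region 1159 kb away. Tnc (chr4:63620819-63681760), with 26 exons and 7106 nt the longest transcript of the set, had its nearest odd region 357.4 kb away. Tgfbi (chr13:56710920-56740923) had its nearest odd region 1012 kb away in Tmed9. Tnc is the only member on the chromosome of PAM, 25.01 Mb from it. The absence of a region says only that none reached the lists at an unknown depth.

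In Sparc, Thbs1 and Spp1 the last exon held the highest odd region, whereas Thbs2 and Cyr61 held their only region outside it. In Sparc the last-exon region had an odd score of 72, beside 8 and 9 over exons 5 and 6. In Thbs1 the last-exon regions had 29 and 23, beside 8 in exon 3, and in Spp1 the values were 48 in exon 8 and 29 in exon 7. Of the 3 members with odd regions both in and outside the last exon, the last exon was highest in 3. Of 175 protein-coding genes of that kind in the odd list, it was highest in 130 (74.3%) and lower in 25. In the even pool, Thbs1 was the only such member, with 9 in exon 22 and 4 in exon 3, beside 6 of 14 genes over the list.

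In the odd pool the share of member regions in the last exon was close to the share of length. Of the 11 odd regions, 5 lay there (45.5%), and last exons make up 46.6% of the exonic length of these genes, weighted by region. Over all multi-exon protein-coding genes the last exon held 69.5% of 1493 pairs of an odd region and a gene, with 46.1% by length. A pair was counted where the region's midpoint lay on an exon, so a region in overlapping genes can count more than once. Of the 5 even member regions, 4 lay in the last exon (80%), beside 69.5% of 167 such pairs in the even list. With so few regions in the even pool, these shares are coarse.

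All 16 member regions had their midpoint on an exon of the gene. In the odd pool this was 11 of 11 (95% Wilson interval 74.1 to 100%), beside 79.5% of the list. In the even pool it was 5 of 5 (56.6 to 100%), beside 57.4% of the list. These intervals cover counting error only, and both include the list shares. The member regions were selected on gene spans, whereas the lists also count regions outside any gene, which cannot lie on an exon. Part of each contrast is therefore set by the rule. The midpoint lay in coding sequence for 8 odd and 3 even regions and in the 3′ UTR for 3 odd and 2 even regions, and no region lay in a 5′ UTR or had its midpoint in an intron.

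Of the odd member regions, 8 of 11 ran past an exon end, and 0 of 5 even ones did. All bases were exonic in 5 of 5 even regions, beside 44.6% of the even list, and in 3 of 11 odd regions, beside 56.5% of the odd list. Here too the lists include regions outside any gene, which the selection of members left out. The 4 odd member regions on internal exons shorter than the region were those over Sparc exons 5 and 6, Cyr61 exon 4 and Thbs2 exon 17. Of these 4, 3 held the whole exon, and the midpoints of region and exon lay a median of 1.5 bp apart. Over the odd list, 204 of 244 regions of this kind held the whole exon (83.6%), with a median distance of 8 bp. No member region of the even pool fell on such an exon.

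**Figure D3:**
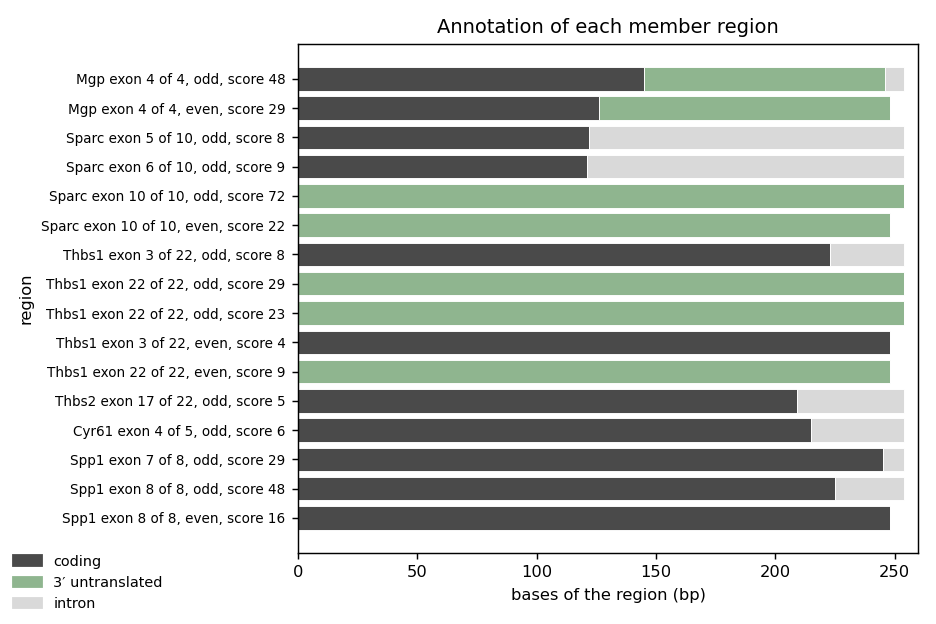
Number of bases of each of the 16 member regions (horizontal axis, bp) that are coding, 3′ untranslated or intronic in the reference transcript; each bar is 1 region, named by gene, exon, pool and score. The regions over Sparc exons 5 and 6 are the most intronic (132 and 133 bp), and the even regions hold no intron.

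The member regions were also described by features that the rule did not use, and these were common in the lists too. Each was unique in the genome, every 31-mer having 1 copy. A median of 2 or more copies was found in 0 of 11 odd (Wilson upper bound 25.9%) and 0 of 5 even member regions (upper bound 43.4%). In the lists it was found in 16.5% of odd and 19.4% of even regions, shares below these bounds. None held AATAAA, the common polyadenylation signal, on either strand. This was 0 of 11 odd regions (Wilson upper bound 25.9%) and 0 of 5 even regions (upper bound 43.4%). The list shares, 17.6% and 15.9%, lie below these bounds. No match says only that these letters are not in the window. GC content had a median of 51.6% in the odd (49.2 to 56.3%) and 51.2% in the even member regions (46.4 to 58.5%), beside 49.6% and 48.0% in the lists. No member region overlapped another gene.

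Scores and agreement of pools stood above the list values. The odd member regions had a median score of 23 (5 to 72), beside 6 for the list, and the even member regions a median of 16 (4 to 29), beside 5. A region of the other pool overlapped 3 of 11 odd member regions (27.3%, Wilson interval 9.75 to 56.6%), beside 6.96% of the list. The same 3 loci, in Mgp, Spp1 and Thbs1, gave 3 of 5 even ones (60.0%, 23.1 to 88.2%). That interval includes the 42.6% of the even list. The intervals take regions as independent, which regions of one gene are not. The members were named with these scores and overlaps known, so the contrast is a description. Per kb of spliced transcript, Mgp held 1.67, Spp1 1.42, Sparc 1.30, Thbs1 0.513, Cyr61 0.493 and Thbs2 0.169 odd regions.

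The probes designed against PAM were compared with the member regions. The 6 probes are 20 nt each and lie in numbered order along the annotated PAM transcript of 618 nt, from position 65 to position 562. The form that the paper cloned is longer and was not used here. They are printed because a match between a probe and a region bears on how the region was recovered, and the odd and even pools were taken to follow this numbering, which is not stated. Capitals in probe 2 mark the longest match found.
Probe 1: gccagaaagaatggatgact
Probe 2: GCATTTTCAGtgggatcaca
Probe 3: acctgccatctgctatcaaa
Probe 4: tcttcacaaaccctcatgat
Probe 5: acaagtacttcagctccatg
Probe 6: gttctgatatgtaagctcct

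Each region was compared with every probe, whichever its number, so a run can come from a probe of the other pool. Recovery by a pool's own probes was not tested. The longest run that a probe shared with a member region was 6 to 10 nt, with a median of 7. The list medians were 7 for odd and 8 for even regions. The 10-nt run was in Thbs1 exon 22, at chr2:117951125-117951134 within the shared locus, where probe 2 matched the gene strand. It lay in both the odd and the even region, and probe 2 carries an even number. The site is shown with 10 bases on either side and the match in capitals.
Thbs1 exon 22 site: acacacagaaGCATTTTCAGgcatgtcaaa
Runs of 10 nt or more were found in 1 of 11 odd and 1 of 5 even member regions, beside 4.50% of the odd and 8.12% of the even list. Between the annotated PAM transcript and the member regions the longest run was 7 to 11 nt, and the list medians were 9.

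Only 156 protein-coding genes held a region in both pools, of 1512 with a region in either, and 4 of them were members. The genes nearest to each member by the summed difference of its highest scores were named by a fixed rule over the 152 other genes. Nearest to Mgp (48 odd, 29 even) was Hsd17b4 with 54 and 16, and nearest to Spp1 (48 and 16) was again Hsd17b4, followed by Bgn, encoding the matrix proteoglycan biglycan, with 41 and 15. Nearest to Sparc (72 and 22) were Actb with 66 and 18 and Fn1, encoding fibronectin, with 81 and 25. Fn1 differed in the number of regions, 26 odd and 10 even, against 3 and 1 in Sparc. Nearest to Thbs1 (29 and 9) were Tpm4 with 30 and 8, Pfn1 with 28 and 7 and Scd2 with 26 and 9.

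**Figure D4:**
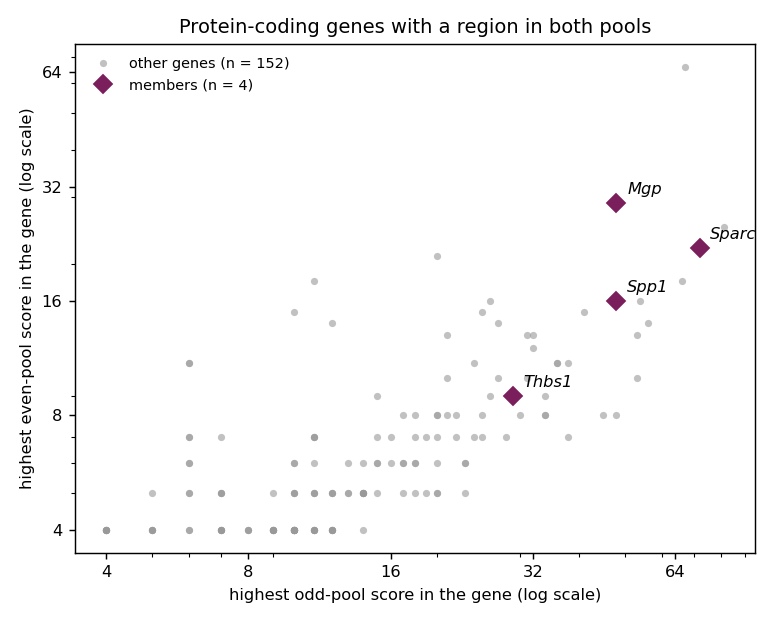
Highest odd-pool score (horizontal axis, log scale) and highest even-pool score (vertical axis, log scale) in each protein-coding gene with a region in both pools; diamonds are the 4 members and circles the other 152 genes. Mgp, Sparc and Spp1 lie toward the upper right and Thbs1 in the middle of the range; the 2 axes are scores of separate lists.

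Of 25 other genes of the matricellular families, 2 held an odd region (8%, beside 6.46% of all protein-coding genes), 2 an even region (8%, beside 0.996%) and 0 a shared locus (beside 0.469%). Fstl1, a SPARC relative, held 3 odd regions with a highest score of 19 in its last exon and an even region with 7. Wisp1, a CCN gene, held an odd region with 9 in its last exon, and Spock3 held an even region with 4 in an intron. The thrombospondins Thbs3, Thbs4 and Comp held none, and neither did the tenascins Tnxb, Tnr and Tnn. Ibsp, Dmp1, Dspp and Mepe, which belong to the same acidic phosphoprotein family as Spp1 and lie in one cluster with it on chromosome 5, held none either.

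Several receptors and partners of these proteins held odd regions. Of 17 listed, 6 held an odd region (35.3%, beside the 6.46% of all protein-coding genes), 2 an even region (11.8%, beside 0.996%) and 1 a shared locus (beside 0.469%). This list was chosen with earlier results of these data known and not matched for expression, so the contrast is a description. Itgb1, the beta-1 integrin subunit, held 6 odd regions with a highest score of 20 and an even region with 5, and its shared locus lay in the last exon. Itga5, Itgb5, Cd44, a hyaluronan and osteopontin receptor, Sdc4, and Lrp1, a clearance receptor of thrombospondins, held odd regions with highest scores of 7, 7, 14, 11 and 14. Itgb3 held an intronic even region with 5, and Itgav, Cd36 and Cd47 held no region.

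Of 20 listed genes of the TGF-beta and YAP/TEAD axis, 4 held an odd region (20.0%, beside 6.46% of all protein-coding genes) and 0 an even region, where 0.996% of all protein-coding genes held one. These genes too were listed with earlier results known and without matching for expression, so the shares are a description. Tgfbr2, a TGF-beta receptor, held 2 with a highest score of 10, and Ankrd1, a YAP target, held 2 with a highest score of 17. The latent TGF-beta binding proteins Ltbp1 and Ltbp3 held 1 each, with 8 and 6, in the last exon. Tgfb1, Tgfb2, Tgfb3, Yap1 and Wwtr1 held none. No gene of the 3 lists reached the highest odd scores of Mgp, Sparc, Spp1 or Thbs1.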

How the data were processed

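ChIRP-seq regions of PAM in ASCs were analysed for the odd and the even pool, 1 library each. Per the submitters' notes and the methods, the authors aligned reads with Bowtie2, kept unique matches to mm9, and took peaks from MACS2. The deposited lists give a score per region whose meaning is not stated in the sources used here. Versions are not given in the sources used here. The lists used here carry no count, so depth and counting error per region are unknown.

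The first coordinate was read as 0-based and is printed 1-based. Regions were assigned to gene spans by at least 1 bp. The reference transcript was the one with the longest coding sequence. Uniqueness was the median genome count of a region's 31-mers. The members and gene lists were chosen with earlier results of these data known. Genes named beside the members were those of the lists and, for likeness, the 3 with the smallest summed difference of highest scores. Exon containment, codon content and the order of scores within a gene were added after the regions were seen. Position and overlap steps were tested on simulated regions of the odd width placed at known exon positions, and 200 of 200 were read back correctly. The 0-based reading of the first coordinate could not be checked this way. No test over samples was possible. Sequences are from the mm9 genome and, for probes, from the study's probe table. Alternatives changed the overlap rule, the span, the score filter, the transcript and the members. Python 3.11.15, NumPy 2.4.6, SciPy 1.17.1, numba 0.67.0 and matplotlib 3.10.9 were used.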

Additional observations from a re-analysis of the deposited data

How the results depend on the processing

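Of 31 alternatives, 29 left the value within its margin, and 2 moved it past it. The margin was 1.5 times for counts and medians and the 95% Wilson interval for shares. Several alternatives could not move the value. Every member region lay whole within its gene span with its midpoint on an exon, and no other region lay within 5000 bp of a span. Counting the even in place of the odd regions raised the share in the last exon from 45.5% to 80%. Taking the highest region of each member raised the median odd score from 23 to 38.5. With regions of both pools within 1000 bp counted as shared, Sparc joined Mgp, Spp1 and Thbs1, giving 4 members. Scores above the list median left 9 odd and 4 even regions, and took the members with an odd region from 6 to 4, without Thbs2 and Cyr61. That fall lies at the limit of the margin. No paired analysis was possible because neither probe pool was sequenced more than once. The unknown depth and the undefined score limit every value.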
